A study of Homo sapiens with 12 samples.

Results

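The comparison described here set NCI-H295R cells treated with CJ28 against cells treated with vehicle (VEH), gene by gene, over the protein-coding genes that the cells expressed. Included were genes annotated as protein-coding whose TPM reached 1 in 4 or more of the 8 CJ28 and VEH samples. TPM is a gene's share of all transcripts in a library after correction for transcript length, on a scale that sums to 1e+06. By this rule 11311 of the 19957 protein-coding genes were included, out of 60662 genes of every class in the table. The NCI-H295R line was derived from a human carcinoma of the adrenal cortex and makes cortisol. Confluent cultures were kept without serum for 12 h, and all groups shared this step. They then received 0.1% DMSO as vehicle, or 30 µM CJ28, a compound studied as an inhibitor of cortisol synthesis, for 24 h. Each group had 4 samples, and a further 4 samples treated with 30 µM metyrapone (MET), an established inhibitor of cortisol synthesis, shared the model that estimated the spread between samples. All samples came from a single carcinoma line and nothing in the labels says that they were separate cultures, so the p-values measure only the spread between these samples.

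Of the included genes, 10586 reached 1 TPM in all 8 samples and 257 in exactly 4, with a median of the mean TPM of 1.06 in the latter. Just outside the rule, 130 protein-coding genes reached 1 TPM in exactly 3 samples, with a median of the mean TPM of 0.893. A further 1737 of the 8646 protein-coding genes below the minimum were at 0 in all 8 samples. The minimum was reached only through CJ28 samples by 88 genes and only through VEH samples by 115, so these genes had to differ to be included. Nuclear protein-coding genes held 24.3% to 24.8% of TPM in the VEH samples and 21.3% to 21.4% in the CJ28 samples. Because this share was lower in CJ28, every comparison was made on TPM and again on rescaled TPM, in which each sample's nuclear protein-coding genes were made to sum to 1e+06. Read depth cannot be recovered from TPM, so no counting error is given. Of 12 adrenocortical markers, 10 were included, with STAR, the cholesterol importer of mitochondria, at 19.95 to 59.7 TPM and NR5A1 at 24.7 to 49.5 TPM over the 8 samples, whereas HSD3B2 (at most 0.97 TPM) and CYP11B1 (at most 0.02 TPM) were not. No marker of endothelial cells, fibroblasts or immune cells passed the rule, and of 7 chromaffin markers only CHGB did. In these whole cultures, a change in the number of cells in a given state and a change in RNA per cell cannot be told apart.

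Several well-studied regulatory programmes are touched by the genes below. When amino acids are short or unfolded proteins collect in the endoplasmic reticulum, kinases phosphorylate the initiation factor eIF2, general translation slows, and the transcription factors ATF4 and CHOP turn on genes for amino acid supply. Sterol synthesis is governed by the SREBP factors, which are held in the endoplasmic reticulum by INSIG proteins when cholesterol is plentiful and are released when it is scarce. In steroid-producing cells, cholesterol is also the precursor of the hormones, and the nuclear receptor NR5A1 (SF-1) drives the genes of the steroid pathway.

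On TPM, 7469 of the 11311 genes changed at an adjusted p under 0.05 (66%), of which 2741 were higher in CJ28 (24.2%) and 4728 lower (41.8%). On rescaled TPM, 7516 changed (66.4%), with 4564 higher (40.4%) and 2952 lower (26.1%). Over all 16815 genes tested, of any class, 57% changed on TPM (19.9% higher, 37.1% lower). On rescaled TPM 56.5% of them changed (33.1% higher, 23.4% lower). The balance between rises and falls thus turned with the scale, and with median-of-ratios scaling it was 4045 higher and 3330 lower. Rescaling moved the median log2 fold change of all included genes from -0.11 to 0.09, a shift of 0.20. Of the 4728 genes lower on TPM, 1753 were not called after rescaling and 23 became higher, while 1800 genes not called on TPM became higher. In what follows, "rose" and "fell" are used only of genes that passed the test in the same direction on both scales. Such genes numbered 5693 (50.3%), of which 2741 rose (24.2%) and 2952 fell (26.1%). A stricter group of 565 genes (5%) changed at least 2-fold on both scales, 248 upward (2.19%) and 317 downward (2.8%), and with a pseudocount of 1 in place of 0.1 this group held 340 genes. Among the 565, 50 of the rises passed the inclusion rule only through CJ28 samples and 50 of the falls only through VEH samples, so these had to differ to be counted. In 561 of these 565 genes the CJ28 and VEH samples did not overlap on either scale, against 59% of all included genes on TPM and 60% on rescaled TPM. The 565 genes were chosen by p-value and size of change in these same samples, so their lack of overlap largely follows from the choice. In MET samples, which share the VEH samples as controls, none of the 565 genes passed the test against VEH in the same limma model (lowest adjusted p = 0.889). Of the 565, 33 had an unadjusted p under 0.05 in that model. The same counts over all included genes are not given, so these counts do not set the 565 genes apart. The median size of their log2 fold change on TPM was 0.06 in MET and 1.39 in CJ28. The group was defined by a change of at least 2-fold in CJ28, so a larger median there follows from the choice. In MET, 2 of the 565 genes reached 2-fold.

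**Figure D1:**
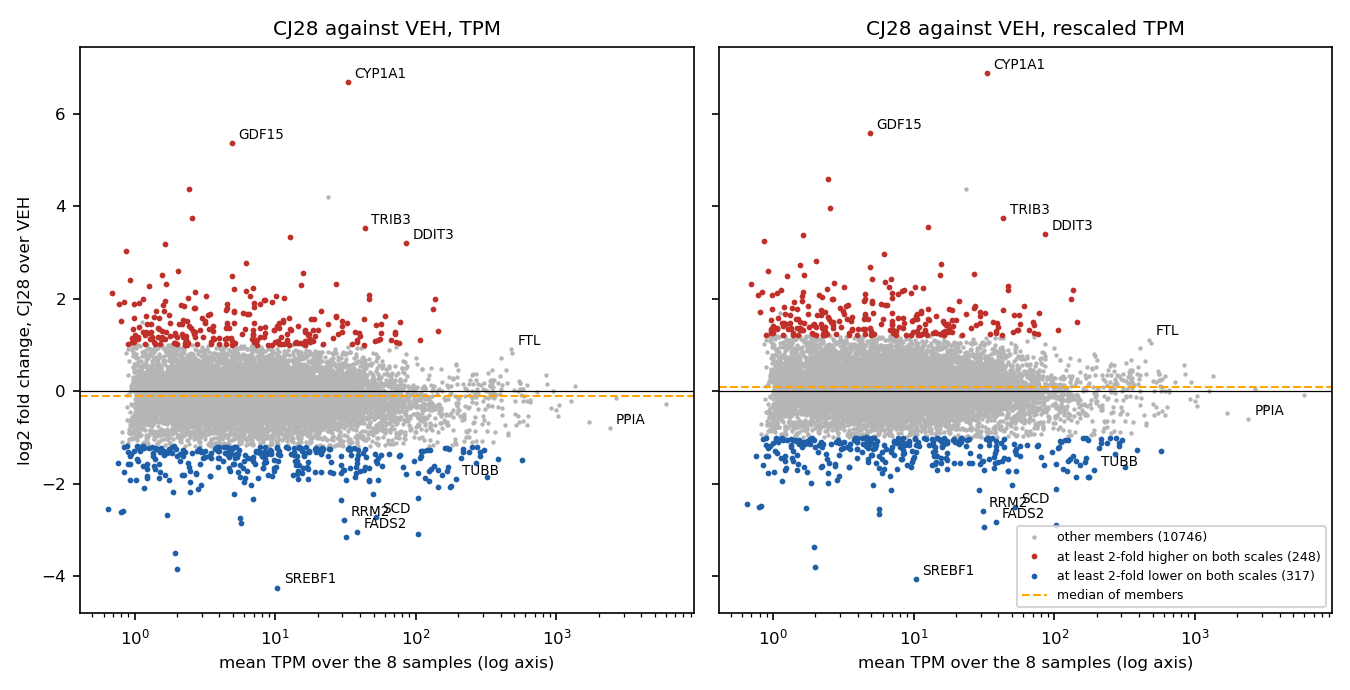
Log2 fold change of CJ28 over VEH (vertical axis) against mean TPM over the 8 samples (log horizontal axis) for the 11311 genes, on TPM (left) and on rescaled TPM (right). Red and blue points are the 248 genes at least 2-fold higher and the 317 at least 2-fold lower on both scales, and the dashed line is the median of all genes, -0.11 on the left and 0.09 on the right.

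The largest rise was that of CYP1A1, the cytochrome P450 that is the classical target of the aryl hydrocarbon receptor (chr15:74719542-74725536 in GRCh38). Its TPM was 0.71, 0.61, 0.5 and 0.39 in the VEH samples and 62.9, 67.9, 65.2 and 65.9 in the CJ28 samples, a log2 fold change of 6.68 ± 0.13 (SE, adjusted p = 1.92e-12). All 4 CJ28 samples lay far above all VEH samples and within a narrow range. CYP1A1 was below 1 TPM in every VEH sample, as were GDF15, DMGDH, ITGA11, NIBAN1, ALDH1L2, BCAT1, DUSP4, KLF4, SLC7A14 and TFEB, so these genes were included only through their CJ28 samples, and a lack of overlap in them follows from the rule. GDF15, a secreted stress cytokine, went from 0.1, 0.17, 0.2 and 0.09 TPM to 8.88, 10.01, 8.71 and 11.2 TPM. TRIB3, a pseudokinase that restrains the ATF4 response (chr20:362835-397559), stood at 7.04, 6.8, 6.86 and 6.52 TPM in VEH and at 77.6, 81.99, 81.3 and 78.6 TPM in CJ28. The CHOP gene DDIT3 (chr12:57516588-57521737) was already expressed in VEH, at 16.4, 17.1, 16.9 and 16.7 TPM, and reached 160.1, 155, 161 and 143 TPM. No CJ28 value of these genes came near a VEH value. Genes named as the largest rises and falls, of all genes or of a list, had to be without overlap between CJ28 and VEH samples. Their lack of overlap therefore follows from the choice. DMGDH, a mitochondrial enzyme of choline breakdown, rose from 0.283 ± 0.126 TPM in VEH to 4.79 ± 0.38 TPM in CJ28 (SD, n = 4). TIPARP, a poly-ADP-ribose polymerase and another receptor target, had 2.2 ± 0.303 TPM in VEH and 23.1 ± 0.806 TPM in CJ28. ARHGEF2, which codes for a microtubule-bound activator of RhoA, had 4.58, 3.95, 5.53 and 3.98 TPM in VEH and 26.1, 26.7, 25.5 and 28.7 TPM in CJ28, a log2 fold change of 2.55 ± 0.13. The integrin subunit ITGA11 and the stress regulators NUPR1 and PPP1R15A completed the leading rises, with log2 fold changes on TPM of 2.60, 2.48 and 2.33. PPP1R15A codes for the subunit that directs the removal of phosphate from eIF2. AL035699.1, an annotated gene without a name, also qualified, but on unsteady values of 0, 0, 0 and 1.45 TPM in VEH and 1.77, 7.26, 5.52 and 3.48 TPM in CJ28.

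The largest fall was that of SREBF1, which codes for the lipogenic regulator SREBP1 (chr17:17810399-17837011). It had 21.9, 19.6, 19.1 and 18.3 TPM in VEH and 1.03, 1.2, 0.76 and 0.83 TPM in CJ28, a log2 fold change of -4.25 ± 0.12 (adjusted p = 2.94e-11). FADS2, a fatty acid desaturase (chr11:61792980-61867354), fell from 66.9, 67.4, 68.9 and 69.5 TPM to 7.56, 8.16, 8.37 and 8.77 TPM. SCD, the desaturase that makes oleate, fell from 90.9 ± 4.06 TPM in VEH to 13.7 ± 0.188 TPM in CJ28. The VEH and CJ28 samples of all 3 genes were far apart. Among falls named below, ABCA1, BTG2, DKK1, ELOVL3, INHA, ITGA8 and PEX11G were below 1 TPM in every CJ28 sample and were included only through VEH samples, so a lack of overlap in them follows from the rule as well. RRM2, the inducible subunit of ribonucleotide reductase, which makes the building blocks of DNA, had 46.6, 54.8, 55.8 and 59.5 TPM in VEH and 6.98, 8.5, 7.14 and 8.32 TPM in CJ28. CCNE2, a cyclin of the entry into S phase, had 11.6 ± 0.59 TPM in VEH and 2.22 ± 0.118 TPM in CJ28. Of the replication-dependent histone genes, H2BC14 fell from 195, 175, 194 and 177 TPM to 20.9, 22.1, 20.4 and 22.9 TPM, and H3C4 from 54.6, 52.4, 61.97 and 57.8 TPM to 4.69, 10.1, 4.32 and 7.76 TPM. The CJ28 samples of H3C4 were less even than those of H2BC14, and the lack of overlap in both was required by the choice of leading genes. INSIG1 and CYP17A1, described below with their pathways, and H2AC4, also a histone, with a log2 fold change on TPM of -2.32, were also among the leading falls. The remaining ones were LRRC17 and ISM1, which code for secreted proteins, with -2.84 and -2.74.

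**Figure D2:**
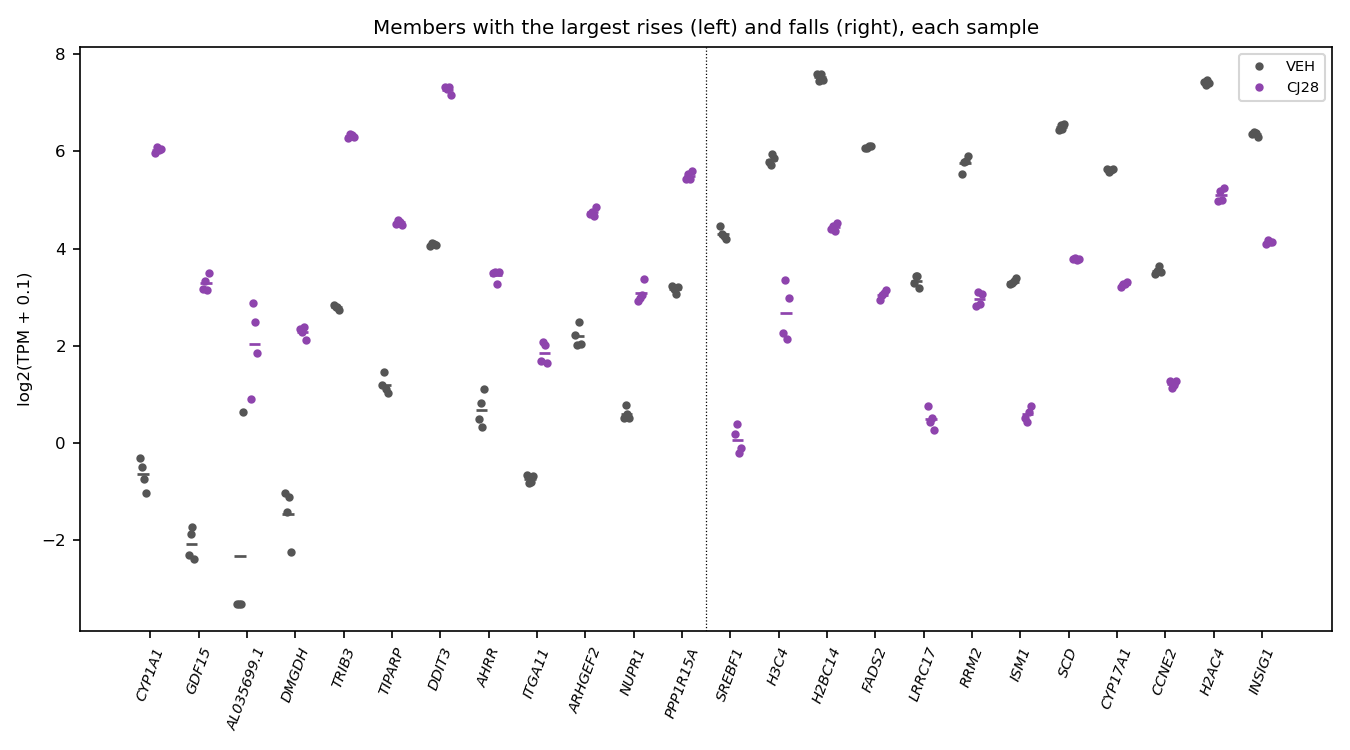
TPM of the 12 genes with the largest rises (left of the dotted line) and the 12 with the largest falls (right), plotted as log2(TPM + 0.1), with each of the 4 VEH samples in grey, each of the 4 CJ28 samples in purple and short lines for the means. The groups lie apart for every gene because the choice of these genes required it, and AL035699.1, with 3 VEH samples at 0, is the least even.

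Most genes of the ATF4 and CHOP programme rose. Of 18 genes in the list, 14 rose and 3 fell, and 13 rose at least 2-fold on both scales. Their median log2 fold change was 1.80 on TPM and 2.00 on rescaled TPM, against -0.11 and 0.09 for all genes. Summed over the list, rescaled TPM went from 903 ± 19.9 in VEH to 2589 ± 23.3 in CJ28 (SD, n = 4). ATF4 itself rose from 71.4, 66.9, 73.03 and 70.1 TPM to 85.2, 84.2, 86.2 and 80.7 TPM, with a log2 fold change of 0.26 ± 0.034 (adjusted p = 3.61e-05). Its partner genes CEBPB and CEBPG, of the C/EBP family, rose by 2.05 and 1.63 on the log2 TPM scale. NIBAN1, a stress-induced gene, rose from 0.247 ± 0.0287 TPM in VEH to 3.03 ± 0.166 TPM in CJ28. SESN2, a leucine sensor that restrains mTORC1, had 2.99, 2.75, 2.74 and 3.09 TPM in VEH and 10.6, 11.5, 10.7 and 12.02 TPM in CJ28. CHAC1, which breaks down glutathione, had 3.68, 3.09, 3.11 and 3.07 TPM and 11.3, 12.9, 11.7 and 13.1 TPM. Both were separated by more than the range within either group. The falls in this list were VLDLR (-1.30), TXNIP (-1.22) and ATF5 (-0.74), given as log2 fold changes on TPM. VLDLR is a lipoprotein receptor, TXNIP binds thioredoxin and limits glucose uptake, and ATF5 is a factor close to ATF4.

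Enzymes that make serine, glycine, asparagine and folate-bound carbon units also rose in most cases. Of 16 genes in this list, 12 rose, 8 of them at least 2-fold, and 1 fell, with a median log2 fold change of 0.99 on TPM and 1.20 on rescaled TPM. ASNS, asparagine synthetase, had 18.2, 19.9, 17.2 and 19.98 TPM in VEH and 74.9, 73.7, 74.2 and 75.4 TPM in CJ28, a log2 fold change of 1.98 ± 0.055. In the serine route itself, PHGDH, the first enzyme, rose from 53.4 ± 6.27 TPM in VEH to 75.5 ± 5.91 TPM in CJ28, and PSAT1, the second, rose from 41.1 ± 0.763 TPM in VEH to 100.3 ± 2.56 TPM in CJ28. PSPH, the last enzyme of the same route, fell, from 19.4, 20.4, 21.5 and 18.97 TPM to 14.4, 14.9, 13.9 and 14.8 TPM (log2 fold change -0.47 ± 0.058 on TPM and -0.26 on rescaled TPM). The mitochondrial folate enzymes SHMT2, MTHFD2 and ALDH1L2 rose by 1.78, 0.86 and 1.89 on the log2 TPM scale. The cytosolic counterparts SHMT1 and MTHFD1 had -0.25 and -0.05 on that scale, and neither passed the test in the same direction on both scales. Amino acid transporters followed, with 8 of 13 rising, 4 of them at least 2-fold, and 1 falling. SLC3A2, the shared heavy chain of several transporters, went from 54.9, 51.8, 56.3 and 56.04 TPM to 215, 219, 213 and 219 TPM. Its partner SLC7A11, which takes up cystine, rose from 9.52 ± 0.762 TPM in VEH to 28.1 ± 1.15 TPM in CJ28, whereas its partner SLC7A5, which takes up leucine, had 1.79 ± 0.27 TPM in VEH and 2.15 ± 0.38 TPM in CJ28 and was not called on TPM. SLC43A1, another leucine carrier, rose by 2.16 on the log2 TPM scale, and SLC7A8, a carrier of the same kind, was the list's fall at -0.66.

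The aminoacyl-tRNA synthetases of the cytosol, which load amino acids onto tRNA, rose in most cases. Of 20 genes, 13 rose, 7 of them at least 2-fold, 1 fell and 6 did not pass the test in the same direction on both scales, with a median log2 fold change of 0.59 on TPM and 0.79 on rescaled TPM. WARS1, for tryptophan, was highest in order of change, from 31.6, 28.9, 29.3 and 28.1 TPM to 89.5, 94.99, 86.4 and 94.3 TPM. AARS1, for alanine, went from 27.9 ± 2.24 TPM in VEH to 75.97 ± 7.46 TPM in CJ28, and IARS1, for isoleucine, from 83.8 ± 3.68 TPM in VEH to 206 ± 11.1 TPM in CJ28. The fall was that of EPRS1, the enzyme for glutamate and proline and the most abundant of the list in VEH. It had 298, 306, 304 and 294 TPM in VEH and 144, 145, 146 and 135 TPM in CJ28, a log2 fold change of -1.07 ± 0.031 on TPM and -0.87 on rescaled TPM. HARS1, FARSB, QARS1, RARS1 and KARS1, which were among the 6, lay between -0.14 and 0.08 on the log2 TPM scale.

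The promoters of these genes were searched for the C/EBP-ATF response element, which ATF4 and CHOP bind with C/EBP partners, as the letters TGATGNAA on either strand. RefSeq promoters of 250 bases before to 50 after the start (GRCh38.p14) were matched by symbol for 9148 of the 11288 genes sought, which left out the mitochondrial and Y chromosomes. The element was found in 1.6% of these 9148 promoters and in 3.67% of all 27195 promoters in the table. It was found in 14 of the 185 matched genes that rose at least 2-fold (7.57%), in 2 of 254 that fell at least 2-fold (0.787%), in 6 of 16 synthetases (37.5%), in 4 of 11 genes of the serine list (36.4%), in 3 of 12 transporters (25%) and in 2 of 16 genes of the ATF4 and CHOP programme itself (12.5%). In the 3 transporters and in CARS1, MARS1, NARS1 and TARS1 of the synthetases, the match overlapped or followed the transcription start. The matching part of 5 of the other promoters is shown, each 5′ to 3′ on the strand of its gene and before the transcription start. The element is in capitals, so that its form and place can be compared. The element reads TTGCATCA where it lies on the opposite strand.
ASNS (chr7:97872439-97872506, minus strand): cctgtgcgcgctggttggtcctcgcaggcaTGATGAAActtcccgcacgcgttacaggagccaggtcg
AARS1 (chr16:70289656-70289723, minus strand): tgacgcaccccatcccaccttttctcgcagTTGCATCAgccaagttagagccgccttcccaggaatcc
IARS1 (chr9:92293698-92293740, minus strand): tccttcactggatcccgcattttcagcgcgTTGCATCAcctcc
CHAC1 (chr15:40953232-40953299, plus strand): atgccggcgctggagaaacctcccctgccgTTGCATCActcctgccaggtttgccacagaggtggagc
BCAT1 (chr12:24949112-24949179, minus strand): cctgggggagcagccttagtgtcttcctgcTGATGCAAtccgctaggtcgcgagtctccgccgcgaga
The element started 68 bases before the transcription start in ASNS, 187 in AARS1, 13 in IARS1, 209 in CHAC1 and 48 in BCAT1. All 5 genes rose at least 2-fold, BCAT1, a branched-chain amino acid transaminase, from a low level of 0.3, 0.46, 0.24 and 0.49 TPM to 1.49, 1.09, 1.17 and 1.17 TPM. These 5 were chosen after their values were seen, so their shared rise is a description. The other genes of the serine list with the element before the start also rose, but not at least 2-fold on both scales. The promoters of TRIB3 and DDIT3 held no match in this window, which says nothing of sites elsewhere.

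In the endoplasmic reticulum, genes for protein folding rose by smaller amounts. Of 21 chaperone and folding genes, 16 rose, 3 of them at least 2-fold, and 1 fell (TXNDC5, -0.31), with a median log2 fold change of 0.40 on TPM and 0.60 on rescaled TPM. HYOU1, a large chaperone, had 33.8, 33.9, 34.8 and 34.1 TPM in VEH and 72.8, 73.8, 73.2 and 75.2 TPM in CJ28. HSPA5 (BiP), the central chaperone, had 26.9, 35.3, 32.4 and 45.6 TPM and 77.7, 74.6, 56.7 and 95.4 TPM, a wider spread within both groups but without overlap. XBP1, whose spliced mRNA codes for a factor of the unfolded protein response, went from 16.9, 17.7, 19.1 and 17.4 TPM to 72.7, 76.6, 76.4 and 75.3 TPM (log2 fold change 2.08 ± 0.043, adjusted p = 2.15e-12), and gene-level TPM does not separate its spliced form. Of the 32 genes of the IRE1-XBP1 branch and of protein degradation from the endoplasmic reticulum, 16 rose and 4 fell, VCP (-0.83) and the signal recognition particle subunit SRP9 (-0.61) most. Vesicle coats moved the same way, with 10 of 25 COPII and COPI genes rising and 1 falling, led by SEC24D (1.38) and SEC23B (0.80), and COPG2 was the fall (-0.43). GBF1, which starts COPI coat assembly, changed sign with the scale, -0.17 on TPM and 0.03 on rescaled TPM.

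Chaperones of the cytosol moved the other way. Of 22 heat shock genes 15 fell and 4 rose, with a median log2 fold change of -0.57 on TPM and -0.36 on rescaled TPM, and their summed rescaled TPM went from 9894 ± 133 in VEH to 6666 ± 133 in CJ28. HSPA8, the constitutive HSP70, had 379, 391, 385 and 371 TPM in VEH and 166, 165, 174 and 154 TPM in CJ28. HSPE1, the mitochondrial co-chaperonin that the list also holds, had 415, 437, 437 and 428 TPM and 187, 174, 184 and 171 TPM. The inducible HSPA1A also fell (-0.67). The heat shock factor genes HSF1 and HSF2 rose instead, by 0.60 and 0.50 on the log2 TPM scale. Mitochondrial chaperones and proteases split, 9 of 19 rising and 6 falling. The mitochondrial HSP70 gene HSPA9 rose from 154, 159.9, 159.9 and 156 TPM to 232, 228, 234 and 231 TPM and the protease LONP1 by 0.85 on the log2 scale, while HSPD1, the chaperonin partner of HSPE1, fell (-0.73).

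**Figure D3:**
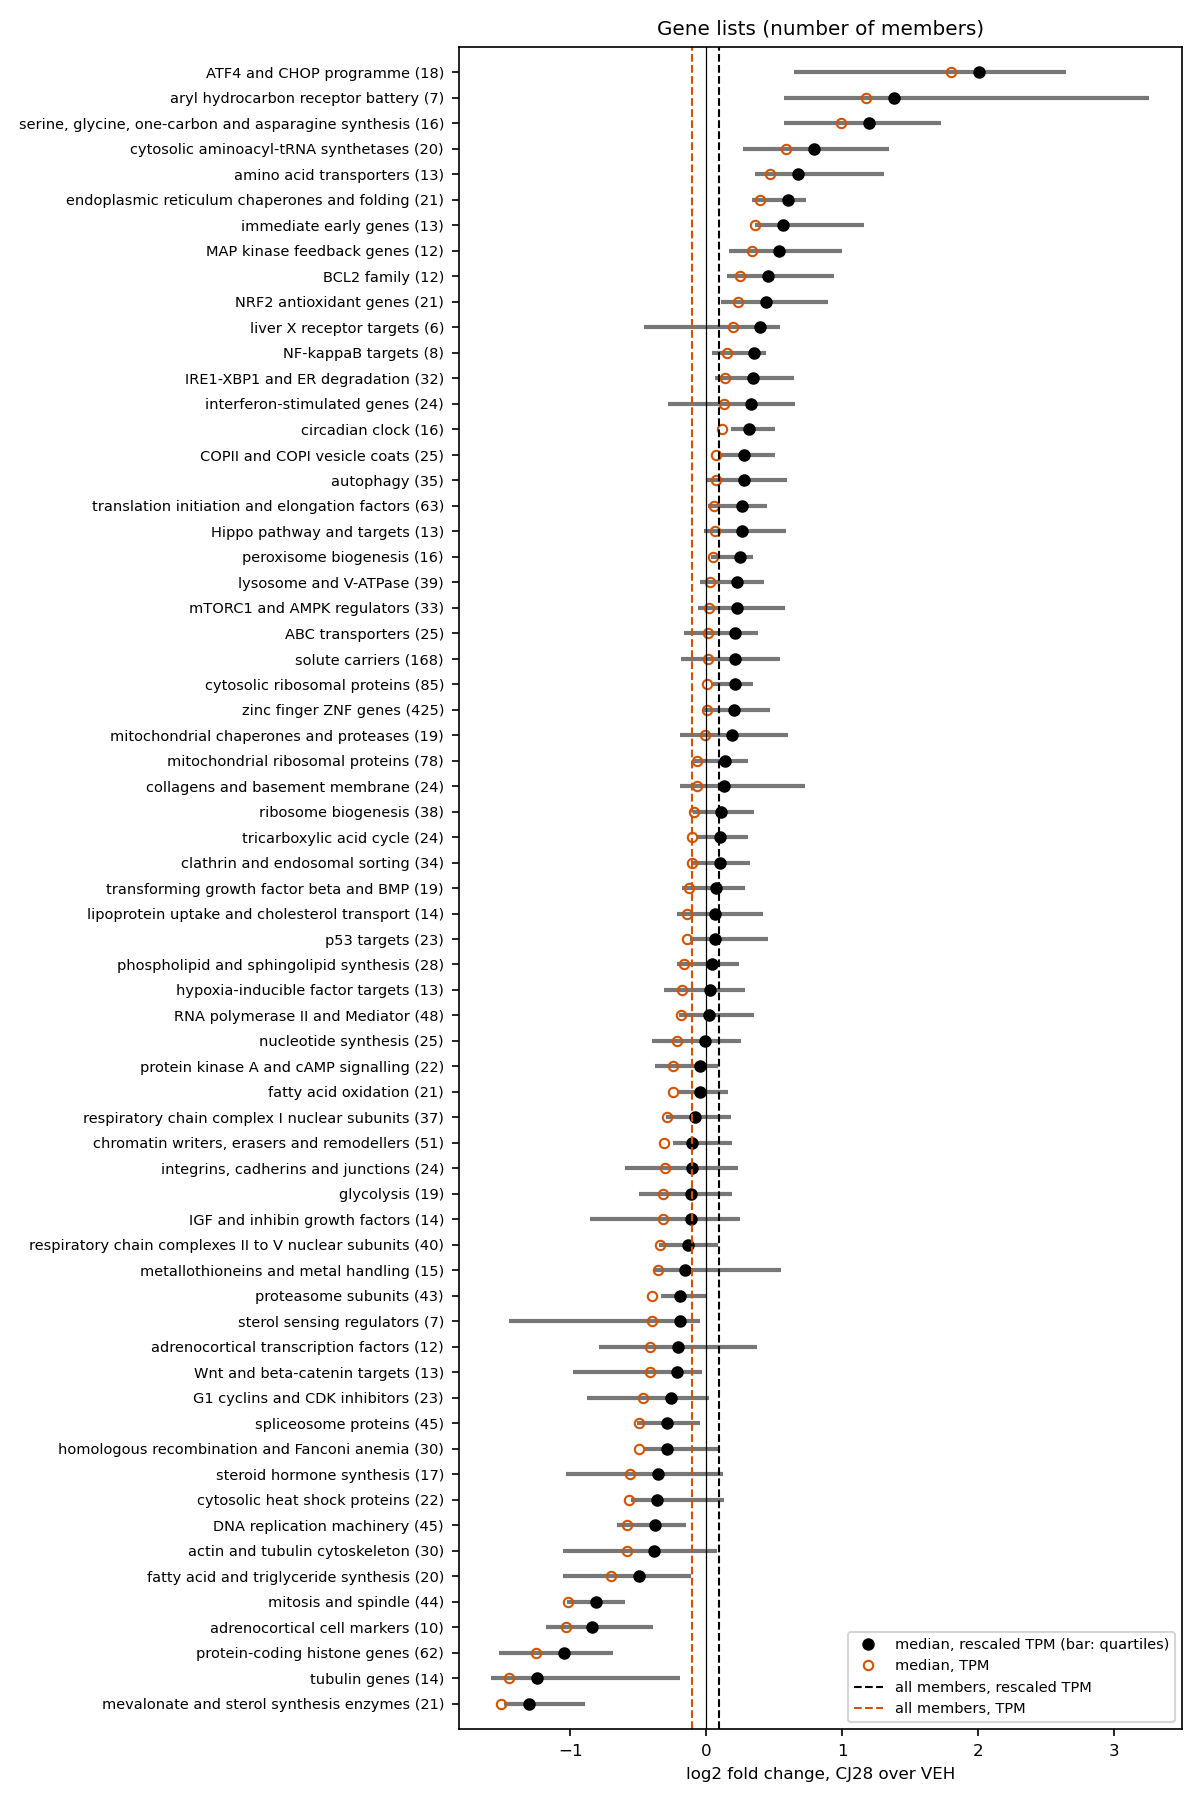
Median log2 fold change of CJ28 over VEH for each gene list with at least 5 included genes, with the number of genes in brackets, on rescaled TPM (filled points, bars for the quartiles) and on TPM (open points). Dashed lines are the medians of all genes, 0.09 and -0.11, and lists run from the ATF4 and CHOP programme (2.00 on rescaled TPM) down to sterol synthesis (-1.30).

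Targets and partners of the aryl hydrocarbon receptor, a sensor of planar aromatic compounds, rose in 5 of 7 cases, 4 of them at least 2-fold. Beside CYP1A1 and TIPARP, the receptor gene AHR itself rose from 4.75 ± 0.361 TPM in VEH to 10.9 ± 0.915 TPM in CJ28. AHRR, the repressor of the receptor, rose from 1.31, 1.66, 1.15 and 2.04 TPM to 11.1, 11.3, 9.58 and 11.3 TPM, and a second annotated gene of the same symbol, which overlaps it, also rose at least 2-fold, so RSEM may have divided reads between them. The partner gene ARNT had 12.2 ± 0.381 TPM in VEH and 12.03 ± 0.814 TPM in CJ28. It was not called on TPM (adjusted p = 0.734) but was higher on rescaled TPM (log2 fold change 0.18, adjusted p = 0.0252). The dioxin response element (TNGCGTG, either strand) was found in 2 of 7 promoters of this list (28.6%), against 7.6% of the matched promoters of all included genes and 4.86% of those that rose at least 2-fold. The E-box (CACGTG) and the antioxidant response element (TGACNNNGC, either strand) were each found in 2 of the same 7 promoters, against 10.5% and 15.2% of all matched promoters. The dioxin response element of the AHRR promoter is shown because it lies close to the RefSeq start, 32 bases before it, with the element in capitals. This promoter was matched by symbol only. It lies inside the AHRR gene whose values are given (chr5:271670-438291) and not at that gene's first base. Which of the overlapping AHRR genes it belongs to was not tested.
AHRR (chr5:321652-321713, plus strand): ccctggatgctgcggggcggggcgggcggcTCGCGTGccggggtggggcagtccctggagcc
Of 21 antioxidant genes governed by NRF2, 11 rose and 2 fell. HMOX1, which degrades haem, went from 5.18, 4.58, 5.59 and 5.08 TPM to 24.6, 26.4, 25.3 and 25.5 TPM, with no overlap and a log2 fold change of 2.30 ± 0.077. The falls were PRDX1, an abundant peroxiredoxin (155 to 74.9 TPM), and PGD of the pentose phosphate route (23.1 to 13.5 TPM), given as means of VEH and CJ28. By amount, the ferritin genes for iron storage, FTL (348, 318, 328 and 327 TPM in VEH, 598, 619.8, 629.6 and 630.2 TPM in CJ28) and FTH1 (282, 303, 266 and 364 TPM, 499.8, 512, 392 and 617 TPM), were among the 6 largest gains in rescaled TPM. FTH1 was less even than FTL, and its lowest CJ28 sample still exceeded its highest VEH sample. The metallothionein genes MT1E and MT2A, whose products bind zinc and copper, fell, with log2 fold changes on TPM of -1.20 and -0.66, as did the zinc exporter SLC30A1 (-0.78).

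Most genes of sterol synthesis fell. Of 21 enzymes from acetyl-CoA to cholesterol, 18 fell, 13 of them at least 2-fold, and 1 rose, with a median log2 fold change of -1.51 on TPM and -1.30 on rescaled TPM. Their summed rescaled TPM went from 4506 ± 120.2 in VEH to 1946 ± 30.6 in CJ28. HMGCS1, which joins acetyl-CoA units at the head of the pathway, had 181, 199, 199.8 and 204 TPM in VEH and 52.1, 51.4, 52.3 and 48.7 TPM in CJ28. MVK, mevalonate kinase, had 23.8, 22.6, 24.6 and 21.3 TPM and 6.77, 5.81, 5.68 and 6.01 TPM. Both groups were tight and far apart. SQLE, squalene epoxidase, fell from 12.3, 13.7, 13.6 and 12.7 TPM to 5.63, 5.58, 6.25 and 6.16 TPM (log2 fold change -1.13 ± 0.052). The rise was that of GGPS1, which makes the isoprenoid used for protein prenylation rather than sterol, from 5.95, 6.44, 8.02 and 6.82 TPM to 8.86, 8.28, 9.35 and 8.44 TPM. Among the regulators, INSIG1 fell from 81.8, 84.2, 83.6 and 79.1 TPM to 16.9, 17.96, 17.4 and 17.5 TPM, and SREBF2, the SREBP gene that governs sterol synthesis, from 13.7 ± 1.43 TPM in VEH to 6.51 ± 1.15 TPM in CJ28. In the list of lipoprotein uptake and cholesterol transport 4 of 14 genes rose and 5 fell. Among them NPC1, which moves cholesterol out of lysosomes, rose by 0.54 on the log2 TPM scale. Of the same list GRAMD1A rose (0.55) and the lipase gene LIPE fell (-0.87). The sterol regulatory element (TCACNCCA, either strand) was found in 2 of 16 matched promoters of the enzymes (12.5%), against 3.36% of all matched promoters. It was found in 2.36% of the genes that fell at least 2-fold and in 2 of 14 promoters of the NRF2 list (14.3%), which held more rises than falls. The stretch of MVK, 195 bases before the start at the first letter, is given with the element in capitals.
MVK (chr12:109573569-109573636, plus strand): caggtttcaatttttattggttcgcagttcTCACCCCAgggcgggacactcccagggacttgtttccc

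Fatty acid synthesis followed sterol synthesis, with 14 of 20 genes falling, at a median log2 fold change of -0.70 on TPM and -0.50 on rescaled TPM. Desaturases and elongases led, with ELOVL3 going from 3.51, 3.63, 3.72 and 3.74 TPM to 0.28, 0.14, 0.23 and 0.3 TPM. FASN, the fatty acid synthase, fell from 10.5, 10.9, 6.57 and 9.55 TPM to 2.99, 3.67, 2.64 and 4.09 TPM and ACACA, which commits acetyl-CoA to the pathway, from 12.1 ± 1.12 TPM in VEH to 6.15 ± 0.508 TPM in CJ28. Of 21 genes of fatty acid oxidation 8 fell and 1 rose, with ECI2 (-0.95) and ECHS1 (-0.73) lowest. CPT1A, the gate of mitochondrial oxidation, was lower on TPM (-0.37, adjusted p = 0.00334) but not called on rescaled TPM (-0.17, adjusted p = 0.128). Of 6 liver X receptor targets 3 rose and 2 fell. Among them ABCA1, the exporter of cholesterol, fell, at 1.06, 1.33, 1.19 and 1.14 TPM in VEH and 0.13, 0.1, 0.12 and 0.12 TPM in CJ28, near the minimum level of the rule. Its other fall was LPCAT3 (-0.94), while PLTP (0.94) and SMPDL3A (0.39) rose. In phospholipid and sphingolipid synthesis 9 of 28 genes fell and 4 rose. Among them UGCG (-1.12) and DEGS1 (-0.86) fell, and CERS4 (0.55) and PTDSS2 (0.40) rose. Of 16 genes of peroxisome assembly PEX11G fell (-0.71), and PEX26 (0.24) and 2 others rose.

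**Figure D4:**
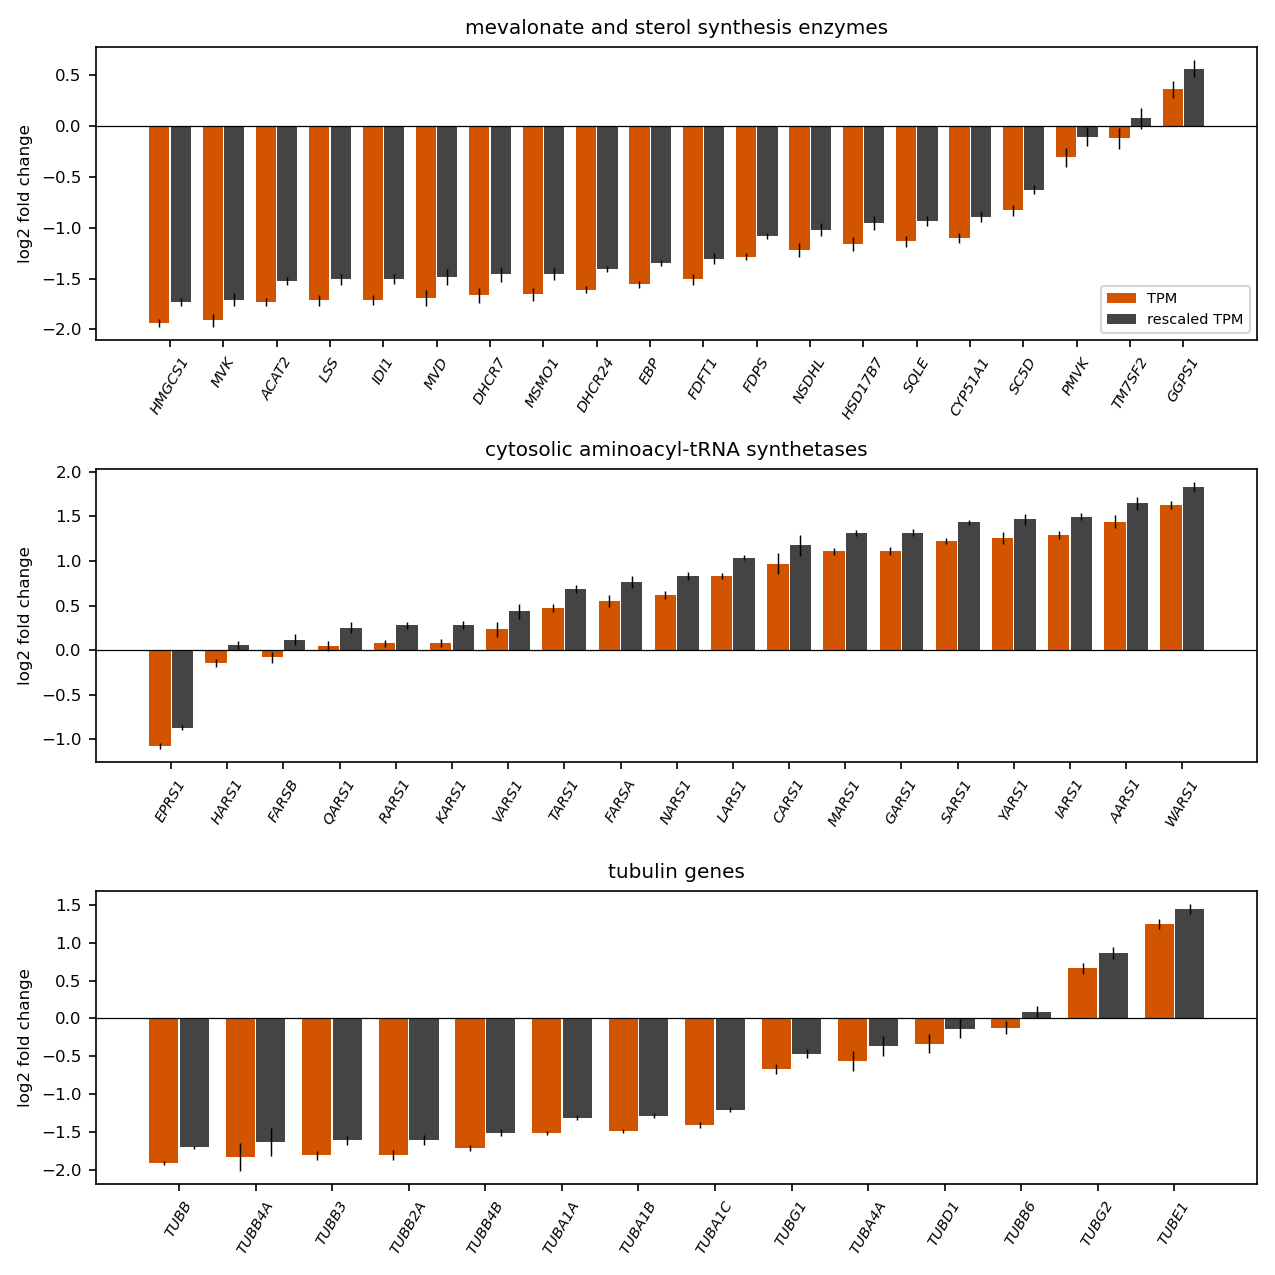
Log2 fold change of CJ28 over VEH for the included genes reported here of sterol synthesis (top), of the cytosolic aminoacyl-tRNA synthetases (middle) and of the tubulins (bottom), on TPM (orange) and rescaled TPM (grey), with bars for the standard error. GGPS1, EPRS1 and TUBE1 stand on the other side of 0 from most of their lists, at 0.36, -1.07 and 1.24 on TPM.

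The steroid pathway that draws on this cholesterol had 11 falls and 1 rise among 17 genes, 5 of the falls at least 2-fold, with a median log2 fold change of -0.56 on TPM and -0.36 on rescaled TPM. CYP17A1, the enzyme that directs precursors to cortisol and androgens, had 49.7, 47.3, 49.4 and 49.5 TPM in VEH and 9.13, 9.58, 9.58 and 9.78 TPM in CJ28. The rise was that of AKR1C3, which reduces androgens, from 14.9, 14.8, 16.9 and 13.97 TPM to 26.1, 26.0, 27.3 and 25.3 TPM, and SULT2A1, which adds sulphate to DHEA, fell, with a log2 fold change of -1.42. Among 12 transcription factors of the adrenal cortex, 6 fell and 4 rose. NR5A1 fell from 47.9 ± 1.89 TPM in VEH to 26.8 ± 1.76 TPM in CJ28, and PKNOX1, a partner of PBX factors, from 7.98, 8.53, 9.25 and 8.28 TPM to 2.72, 2.62, 2.7 and 2.97 TPM. NR0B1 (DAX-1), which represses NR5A1, rose from 2.91, 3.05, 3.22 and 2.58 TPM to 5.96, 5.94, 5.96 and 5.37 TPM. NR4A1 also rose (0.95) and NR2F2 fell (-1.29). Over the 10 included markers of adrenocortical cells, which overlap these lists, 8 fell and 1 rose, and their summed rescaled TPM went from 1913 ± 37.4 in VEH to 1471 ± 112 in CJ28, whose part in the other results was not tested. In protein kinase A signalling, through which ACTH acts, 7 of 22 genes fell and 2 rose. The cyclase genes ADCY9 and ADCY6 rose by 0.80 and 0.71 on the log2 TPM scale, while PRKACA, the catalytic subunit, and SIK1 fell (-0.80 and -0.91).

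NCI-H295R cells carry an activated Wnt pathway, and of 13 Wnt target genes 7 fell, at a median log2 fold change of -0.41 on TPM and -0.21 on rescaled TPM. APCDD1, a Wnt inhibitor, fell from 74.2, 70.5, 74.5 and 75.8 TPM to 17.6, 18.4, 20.3 and 20.8 TPM and DKK1, another one, from 2.18 ± 0.394 TPM in VEH to 0.607 ± 0.135 TPM in CJ28. AXIN2, the most used readout of the pathway, was lower on TPM (-0.24, adjusted p = 0.00102) but not called on rescaled TPM (-0.03, adjusted p = 0.599). IGF2, which this tumour type overexpresses, was uneven in both groups, with 93.1, 109, 62.5 and 96.7 TPM in VEH and 69.96, 75.4, 56.1 and 86.5 TPM in CJ28, and was not called on either scale (adjusted p = 0.114 on TPM). IGFBP2, which binds it, and INHA, the inhibin subunit, fell, with log2 fold changes on TPM of -1.17 and -1.23.

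All 44 included genes of mitosis and the spindle fell, 13 of them at least 2-fold, at a median log2 fold change of -1.02 on TPM and -0.81 on rescaled TPM. Their summed rescaled TPM went from 7399 ± 86.1 in VEH to 4416 ± 67.6 in CJ28. KIF20A, a kinesin of cell division, had 27.1, 27.2, 26.5 and 27.8 TPM in VEH and 6.91, 7.35, 7.68 and 7.01 TPM in CJ28. CCNB1, the cyclin of mitotic entry, had 93.05, 99.5, 103 and 99.98 TPM and 51.9, 53.8, 57.05 and 49.2 TPM, and SPC25 of the kinetochore had a log2 fold change of -1.72. No CJ28 sample overlapped a VEH sample in these genes, which for KIF20A and SPC25 was required by their choice. DNA replication genes fell in 32 of 45 cases and rose in 3, led by PCNA, the sliding clamp, at 106, 113, 111 and 108 TPM and 43.8, 41.6, 41.9 and 38.7 TPM. GINS2 also fell (log2 fold change -1.32), and ORC4 (0.27) and TIPIN (0.19) rose. In recombination and Fanconi repair 19 of 30 fell and 3 rose, with BRIP1 (-1.14) and FANCB (-0.95) lowest and RAD50 higher (0.22). BRCA1 was not called on TPM (0.15, adjusted p = 0.244) but was higher on rescaled TPM (0.36, adjusted p = 0.0102).

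Promoters of the same genes were searched for the cell cycle homology region, which the DREAM and MuvB complexes bind (TTTGAA, either strand), and for the E2F site (TTTNNCGC, either strand). The former was found in 26 of 38 mitosis promoters (68.4%) against 9.82% of all matched promoters and in 53 of 254 genes that fell at least 2-fold (20.9%). The E2F site was found in 21 of 39 DNA replication promoters (53.8%) against 11.4%. A short motif of 6 letters is common, and 15.4% of all promoters in the table held TTTGAA. Its place varied over the mitosis promoters, and the match nearest the gene lay from 161 bases before the start to some bases after it. The stretches below, with the motif in capitals, are those of 4 mitotic genes chosen because it lies close before the start, beside the E2F site of 2 replication genes.
KIF11 (chr10:92593072-92593129, plus strand): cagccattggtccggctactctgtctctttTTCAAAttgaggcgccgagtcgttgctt
PLK1 (chr16:23678830-23678888, plus strand): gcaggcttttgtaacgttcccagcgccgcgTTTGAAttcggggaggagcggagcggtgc
CCNB2 (chr15:59105087-59105145, plus strand): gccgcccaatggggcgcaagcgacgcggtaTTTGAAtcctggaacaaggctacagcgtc
NCAPG (chr4:17810914-17810978, plus strand): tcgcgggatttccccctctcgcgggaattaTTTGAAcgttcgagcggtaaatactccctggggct
PCNA (chr20:5126644-5126711, minus strand): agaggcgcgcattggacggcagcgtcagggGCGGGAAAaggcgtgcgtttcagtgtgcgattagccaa
GINS2 (chr16:85688955-85689015, minus strand): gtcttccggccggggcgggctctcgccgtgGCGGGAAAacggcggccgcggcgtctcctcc
The motif began 28 bases before the start in KIF11, 29 in PLK1 and CCNB2 and 35 in NCAPG, and the E2F site 59 bases before it in PCNA and 31 in GINS2. KIF11, a spindle motor, fell from 26.2, 28.5, 27.1 and 27.7 TPM to 12.5, 11.4, 11.9 and 11.98 TPM. PLK1, a mitotic kinase, fell from 13.4, 15.7, 12.6 and 13.7 TPM to 5.91, 6.65, 5.44 and 8.22 TPM, less evenly. CCNB2, a cyclin, and NCAPG of condensin fell, with log2 fold changes on TPM of -0.98 and -1.38.

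**Figure D5:**
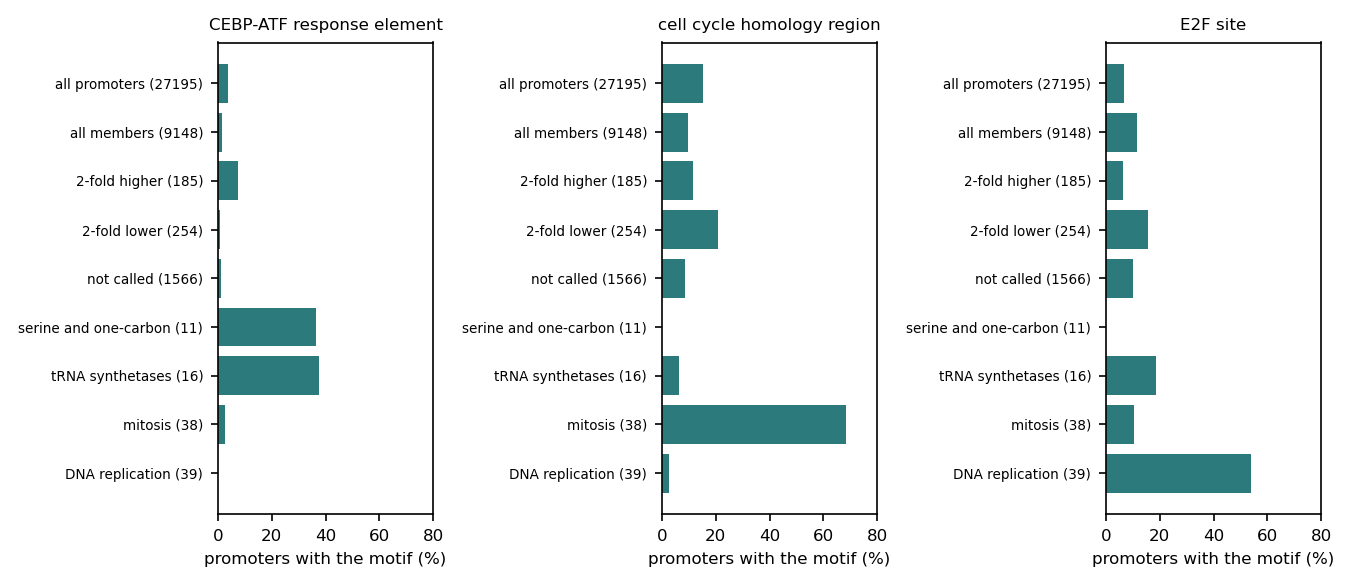
Share of promoters, in percent, that hold the C/EBP-ATF response element (left), the cell cycle homology region (middle) or the E2F site (right), for all promoters, all included genes, genes that changed at least 2-fold, genes not called on either scale and 4 gene lists, with the number of promoters in brackets. The response element reaches 37.5% in tRNA synthetases, the homology region 68.4% in mitosis and the E2F site 53.8% in DNA replication.

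Histone genes fell by large amounts. Of 62 included histone genes 57 fell, 34 of them at least 2-fold, and 2 rose, at a median log2 fold change of -1.25 on TPM and -1.05 on rescaled TPM, and their summed rescaled TPM went from 58735 ± 2745 in VEH to 31123 ± 239.6 in CJ28. H4C4 (520.0, 485, 503 and 490.2 TPM in VEH, 138, 144, 135 and 138 TPM in CJ28), H4C8 and H2BC5 were among the 6 genes that lost most rescaled TPM. The linker histone gene H1-10, which is outside the replication-dependent clusters, rose by 0.28 on the log2 TPM scale. Histone copies are near-identical, and RSEM may divide reads among them, so single values are less certain than the sum. Promoters of this list held the CCAAT box, bound by NF-Y, in 48 of 56 cases (85.7%) against 37.9% of all matched promoters. The CCAAT box was about as common in the endoplasmic reticulum chaperones, which mostly rose (17 of 20 promoters, 85%). It was less common in other lists that mostly rose. These included the serine list (7 of 11, 63.6%), the synthetases (7 of 16, 43.8%) and the amino acid transporters (2 of 12, 16.7%). Histone promoters held the TATA box (TATAAA, either strand) in 37 of 56 (66.1%) against 5.41%. The stretches of the 2 leading histone falls are shown with CCAAT, or ATTGG on the opposite strand, in capitals.
H3C4 (chr6:26199327-26199391, minus strand): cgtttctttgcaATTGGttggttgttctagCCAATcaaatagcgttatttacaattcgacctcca
H2BC14 (chr6:27814915-27814979, plus strand): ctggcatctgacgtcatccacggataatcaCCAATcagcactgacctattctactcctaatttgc
Genes of G1 phase fell more often than they rose, with 12 of 23 falling and 2 rising. E2F2 fell from 3.15 ± 0.503 TPM in VEH to 1.03 ± 0.0624 TPM in CJ28, whereas E2F5, a repressive E2F, rose from 2.19, 2.54, 2.29 and 2.02 TPM to 5.37, 4.36, 4.53 and 4.37 TPM, and CDK6 rose by 0.53 on the log2 TPM scale. In nucleotide synthesis 12 of 25 fell, with RRM2 and then TK1, thymidine kinase (-1.51), in front, and 2 rose, IMPDH2 (0.35) and CAD (0.21). Of 51 chromatin writers, erasers and remodellers 17 fell and 6 rose. UHRF1, which keeps DNA methylation through replication, fell from 14.6, 15.2, 14.5 and 15.3 TPM to 4.14, 4.04, 3.64 and 4.59 TPM, and EZH2 (-0.64) and SMARCA2 (-0.99) also fell. The demethylase gene KDM6B (1.0, 0.8, 0.33 and 0.61 TPM in VEH, 2.22, 1.79, 1.59 and 2.14 TPM in CJ28) and HDAC5 (0.87) rose.

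Tubulin genes were set apart as a group after their values had been seen, so their counts are a description. Of 14 included tubulin genes 10 fell, 8 of them at least 2-fold, and 2 rose, with a median log2 fold change of -1.45 on TPM and -1.24 on rescaled TPM. Their summed rescaled TPM went from 7165 ± 164 in VEH to 2938 ± 26.1 in CJ28. TUBB (chr6:30720352-30725426), the main beta-tubulin, had 303, 305, 299.9 and 308 TPM in VEH and 81.5, 81.9, 81.8 and 78.8 TPM in CJ28, a log2 fold change of -1.91 ± 0.024 (adjusted p = 6.49e-14). TUBA1B, the main alpha-tubulin, had 868, 830.0, 853 and 823 TPM and 304, 299, 308 and 289.9 TPM. The 4 samples of each group lay within a few percent of each other in both genes. All 8 genes that fell at least 2-fold code for alpha- or beta-tubulin and lay between -1.91 (TUBB) and -1.41 (TUBA1C), TUBB3 at -1.81 and TUBB4A at -1.83 among them. TUBB6, also a beta-tubulin, had 7.64 ± 0.429 TPM in VEH and 7.05 ± 0.85 TPM in CJ28 and was not called on either scale. The gamma-tubulin TUBG1 fell (-0.67), while TUBG2 (0.66) and the epsilon-tubulin TUBE1 (1.24) rose. Tubulin copies are alike in sequence, and reads may be divided among them. The gene of the tubulin-binding protein STMN1 (-1.39) and the actin gene ACTB (-0.60) fell, while ZYX of actin structures rose (0.96).

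Among ribosomal protein genes the balance of rises and falls depended on the scale. Of 85 genes, 28 were higher and 25 lower on TPM, and 57 were higher and 9 lower on rescaled TPM. Rises on both scales included RPL12 (358, 349, 347 and 342 TPM in VEH, 629, 623, 638 and 592 TPM in CJ28), RPL4 and RPS27, which with EEF1A1 and the ferritins gave the 6 largest gains in rescaled TPM. RPL22L1 rose from 34.4, 35.8, 33.3 and 29.9 TPM to 85.8, 79.1, 85.2 and 69.2 TPM, and RPS26 and RPS27L fell (-0.73 and -0.65). EIF4EBP1, which blocks the cap-binding factor, rose from 22.6, 21.5, 21.03 and 21.7 TPM to 62.3, 65.03, 62.0 and 66.5 TPM, whereas its paralogue EIF4EBP2 fell from 10.97, 13.2, 10.7 and 12.2 TPM to 5.13, 5.04, 4.88 and 5.0 TPM. Of 33 regulators of mTORC1 and AMPK 13 rose and 5 fell. SESN3 fell (-1.17), and RPTOR, a core subunit, was not called on either scale (-0.01). Of 63 translation factors 24 rose and 9 fell. EIF5 rose (1.04) and EIF4E2 fell (-0.95). In ribosome assembly 9 of 38 genes rose and 7 fell. UBTF (-0.76) and NOP56 (-0.72) fell, and RRP12 (0.56) and RRP1 (0.52) rose. Spliceosome genes fell in 28 of 45 cases, with the splicing regulators SRSF3 (152, 159.6, 153 and 161 TPM in VEH, 58.5, 57.97, 55.9 and 57.4 TPM in CJ28) and SRSF2 (-1.45) lowest. SF3B1, of the branch site complex, was lower on TPM (-0.32) but not called on rescaled TPM (-0.11). In RNA polymerase II and the Mediator complex 10 of 48 genes rose and 13 fell. POLR2A, the largest polymerase subunit, fell from 16.4, 20.7, 12.1 and 20.4 TPM to 8.0, 7.87, 6.0 and 7.0 TPM, with uneven VEH samples, POLR2L also fell (-1.23), and CDK7 (0.53) and MED8 (0.52) rose. Of the 43 proteasome subunits 27 fell and 2 rose, PSMD1 (-0.90) and PSMB2 (-0.81) lowest. PSMB8, a subunit induced by interferon and counted with the interferon-stimulated genes, rose (0.70).

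Zinc finger genes of the ZNF series, the largest list, had medians slightly above those of all genes, which were -0.11 on TPM and 0.09 on rescaled TPM. Of 425 genes 124 rose and 46 fell, 4 of the rises at least 2-fold, with a median of 0.01 on TPM and 0.20 on rescaled TPM. Their balance depended on the scale, with 124 higher and 100 lower on TPM, and 208 higher and 46 lower on rescaled TPM. ZNF558 (1.48) and ZNF391 (1.25) rose most and ZNF730 (-1.15) and ZNF75D (-1.11) fell most. Chromosome 19, where many ZNF genes lie, had the highest median log2 fold change on rescaled TPM of the autosomes, 0.18 over 835 genes.

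In the mitochondrion, 17 of 37 nuclear genes of complex I and 19 of 40 of complexes II to V fell, against 4 and 5 that rose. NDUFB3 (-1.03), NDUFS5 (-0.77), UQCR10 (-0.84) and COX7B (-0.83) fell most, and the core subunits UQCRC2 (0.67), NDUFS7 (0.33) and NDUFS1 (0.31) rose, as did COX7A2L (0.31). Of the 13 mitochondrially encoded genes 8 fell, MT-CO2 (-0.52) and MT-ATP8 (-0.68) among them. MT-CO3, the most abundant of the included genes, had 6860.0, 6536, 6321 and 6623 TPM in VEH and 5337, 5310.4, 5363 and 5544 TPM in CJ28, and MT-CO1 changed sign with the scale, -0.16 on TPM and 0.05 on rescaled TPM. Mitochondrial ribosomal proteins were balanced, 18 of 78 rising, MRPL2 (0.63) and MRPL58 (0.53) in front, and 17 falling, MRPL27 (-1.03) and MRPS28 (-0.92) in front. In the citric acid cycle 4 of 24 genes rose and 4 fell. IDH1, a cytosolic enzyme that makes NADPH, rose from 28.4, 28.8, 27.9 and 26.8 TPM to 54.1, 55.2, 54.5 and 51.2 TPM, while FH (-0.52), PDHB (-0.34) and CS (-0.33) fell and SUCLG1 rose (0.34). Of 19 glycolysis genes 10 fell and 4 rose. PKM fell from 591 ± 18.1 TPM in VEH to 307 ± 1.9 TPM in CJ28, LDHA (-1.15) and ALDOC (-1.29) also fell, and the neuronal enolase ENO2 (1.29) and the transporter SLC2A3 (0.99) rose. HK2, an entry enzyme of the pathway, was not called on either scale (-0.08).

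In the BCL2 family, the immediate early genes and the genes that damp MAP kinase signals, rises outnumbered falls. Of all included genes 24.2% rose and 26.1% fell. Of 12 genes of the BCL2 family 7 rose and 2 fell. The pro-apoptotic BBC3 (PUMA) rose from 1.02, 0.83, 0.92 and 0.83 TPM to 3.7, 4.16, 3.8 and 3.97 TPM and BMF from 1.47, 0.94, 1.06 and 1.1 TPM to 4.22, 3.92, 3.86 and 4.74 TPM. BCL2L11 (BIM), also pro-apoptotic, fell (-0.98), and so did the protective BCL2L1 (-0.41). MCL1, a protective member, changed sign with the scale, -0.20 on TPM (adjusted p = 4.66e-05) and 0.00 on rescaled TPM (adjusted p = 0.939). Among 23 p53 targets 5 rose and 4 fell. Their balance turned with the scale, with 5 higher and 10 lower on TPM, and 10 higher and 4 lower on rescaled TPM. GADD45A rose from 2.77, 3.6, 3.95 and 3.27 TPM to 14.2, 14.3, 12.5 and 13.3 TPM and BTG2 fell from 1.31, 1.46, 1.55 and 1.51 TPM to 0.74, 0.74, 0.66 and 0.65 TPM, as did TP53INP1 (-0.42). CDKN1A (p21), a standard p53 target, stood at 24.9, 24.3, 24.8 and 24.7 TPM in VEH and 21.6, 21.8, 21.2 and 21.5 TPM in CJ28, and its log2 fold change was -0.20 on TPM and 0.01 on rescaled TPM. Of 12 genes that damp MAP kinase signals 7 rose and 1 fell, with DUSP4 rising from 0.36, 0.42, 0.34 and 0.46 TPM to 2.61, 2.71, 2.65 and 2.96 TPM and DUSP6 falling from 5.37, 5.19, 5.27 and 5.25 TPM to 2.23, 2.83, 2.6 and 2.78 TPM, and ETV5 rose (1.02). Of 13 immediate early genes 8 rose and 1 fell. Among them ATF3 (2.43, 2.56, 1.87 and 2.4 TPM in VEH, 9.58, 8.57, 6.46 and 6.79 TPM in CJ28) and KLF4 (1.14) rose and KLF10 fell (-0.62).

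Further signalling lists are given by their counts and leading genes. Of 13 genes of the Hippo pathway 5 rose and 3 fell. The YAP target CCN1 rose from 1.58, 1.84, 1.28 and 1.52 TPM to 5.31, 5.26, 4.22 and 5.45 TPM and YAP1 by 0.49 on the log2 TPM scale, while TEAD4 (-1.23) and TEAD1 (-0.50) fell. Of 19 genes of the transforming growth factor beta and BMP pathways 4 rose and 5 fell. The BMP-induced inhibitors ID3 (2.92, 2.85, 2.12 and 3.01 TPM in VEH, 8.07, 9.38, 7.59 and 10.9 TPM in CJ28) and ID1 (1.05) rose, and TGFBR1 (-0.97) and BMP4 (-0.59) fell. SMAD7, the feedback inhibitor, was lower on TPM (-0.27) but not called on rescaled TPM (-0.07). In the clock list 5 of 16 genes rose and 1 fell. NFIL3 rose from 3.63, 4.65, 3.63 and 3.74 TPM to 14.7, 15.97, 14.4 and 15.3 TPM and BHLHE41 by 0.85 on the log2 scale. Of 13 hypoxia targets 3 rose and 5 fell. They included DDIT4 and P4HA2, which rose (1.00 and 0.99), and PFKFB3 and PFKFB4, which fell (-0.94 and -0.90). Interferon-stimulated genes were split too, 8 of 24 rising, IRF9 (0.86) among them, and 7 falling, OAS3 (-1.12) and IFITM1 (-1.01) most. ISG15 was called only on rescaled TPM (0.52, against 0.32 on TPM). Of 8 NF-kappaB targets 3 rose and 0 fell. TRAF1 rose (0.85), and NFKBIA was not called on either scale (-0.13, adjusted p = 0.0694 on TPM).

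Membrane and matrix genes gave further named changes. Autophagy genes rose in 13 of 35 cases and fell in 2, with WIPI1 going from 4.87, 5.14, 5.67 and 4.76 TPM to 12.04, 11.1, 11.9 and 11.4 TPM and OPTN rising by 0.85 on the log2 TPM scale, while SQSTM1, the cargo receptor, was lower on TPM (-0.22) and not called on rescaled TPM (-0.02). Lysosome genes rose in 16 of 39 cases, among them TFEB, their regulator (0.84), and ATP6V1F (0.54), and fell in 6, CTSZ (-0.59) and ATP6V0D1 (-0.56) most. LAMP1, the main membrane protein of lysosomes, was called only on rescaled TPM (0.17, against -0.04 on TPM). Of 24 collagen and basement membrane genes 8 rose and 6 fell. NID1 rose from 15.3, 15.9, 13.6 and 16.6 TPM to 43.2, 45.2, 39.5 and 47.8 TPM and COL25A1 by 1.32 on the log2 TPM scale, while COL27A1 (-1.05) and FBN2 (-0.84) fell and the laminin gene LAMC1 was not called on either scale (-0.14). Of 24 integrin, cadherin and junction genes 11 fell and 4 rose. The gap junction gene GJA1 fell from 6.03, 6.65, 6.51 and 6.31 TPM to 2.88, 2.68, 2.73 and 2.93 TPM, the integrin gene ITGA8 also fell (-1.51), and ITGA2 rose (0.76). Clathrin and sorting genes were even, 8 of 34 rising and 8 falling, with AP1G1 (-0.68) and AP3M1 (-0.62) lowest and AP3D1 (0.38) and VPS37A (0.38) highest. The clathrin heavy chain gene CLTC changed sign with the scale, -0.18 on TPM and 0.02 on rescaled TPM. Among 168 solute carriers 59 rose and 43 fell, SLC7A14 rising from 0.36, 0.46, 0.41 and 0.37 TPM to 1.9, 1.96, 1.88 and 1.82 TPM and the bicarbonate carrier SLC4A8 falling from 10.2, 10.3, 9.79 and 10.3 TPM to 3.92, 3.48, 3.51 and 3.46 TPM. The sulphate carrier SLC26A2 also fell (-1.31). Of 25 ABC transporter genes 6 rose and 7 fell, and ABCD4 and ABCA5 were the rises named by the rule (0.52 and 0.40).

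By amount, PPIA (cyclophilin A), the included nuclear gene most abundant in VEH, was among the 6 largest losses, with TUBA1B, PKM and 3 histone genes. It had 3059, 3114, 3059.8 and 2953 TPM in VEH and 1812, 1736, 1819.5 and 1619 TPM in CJ28, a log2 fold change of -0.80 ± 0.038 on TPM and -0.60 on rescaled TPM, and EEF1A1, the elongation factor, had 1283, 1312, 1312 and 1279 TPM and 1418, 1402, 1502 and 1292 TPM. The share of changed genes also varied with abundance, which the rule used, and with features that it did not. When the genes were cut into 5 equal classes by mean TPM, those at least 2-fold lower made up 3.8% of the least abundant class, 1.9% to 2.34% of the 3 middle classes and 4.02% of the most abundant one. Those at least 2-fold higher made up 4.2% of the least abundant class and 1.64% to 1.77% of the other 4. The least abundant class ran from 0.649 to 3.00 TPM, close to the minimum of the rule. Of all genes changed at least 2-fold, 50 of the rises and 50 of the falls passed the rule through a single group. Such genes had to differ to be included, and their part in the shares of this class was not tested. In classes by transcript length those at least 2-fold lower made up 4.42% of the shortest and 2.35% of the longest. On chromosome 6 they made up 7.58% of 607 genes, and 2.87% of the 558 genes left there once histone genes were removed, against 2.52% of all genes without histones. Genes with 2 or 3 exons that are not histones were changed more often in either direction, with 3.2% at least 2-fold higher and 3.96% at least 2-fold lower, than those with 4 or more exons, with 2.11% and 2.4%. These shares are descriptions, and no test was made of them.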

How the data were processed

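RNA from 12 samples of NCI-H295R cells (3 groups of 4) was sequenced as ribosomal-RNA-depleted total RNA. The authors trimmed reads with cutadapt 2.8, aligned them to GRCh38 with STAR 2.7.10b and estimated abundance with RSEM 1.3.3, per the labels, and deposited one table of TPM per gene, with no read counts. RSEM shares reads among near-identical copies by estimate. TPM was analysed as log2(TPM + 0.1) with limma 3.58.1 (R 4.3.3, moderated by a variance trend) in a single model of the 12 samples, over the 16815 genes whose TPM reached 0.5 in 4 or more samples, with Benjamini-Hochberg adjustment over all of them and a threshold of 0.05. Rescaled TPM was each TPM divided by its sample's sum over nuclear protein-coding genes, multiplied by 1e+06, with a pseudocount of 0.4. The model was tested on simulated data with 200 changed genes, of which 84.5% were recovered at 1.5-fold and 95.5% at 2-fold for CJ28 against VEH over 16815 genes.

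The included genes and the 68 gene lists were chosen with earlier results of these data known, and list counts and medians are descriptions. Named genes were, by rule, the 12 largest rises and 12 largest falls with a mean TPM of at least 2, called and without overlap on both scales, up to 2 largest rises and falls of each list with its key genes, the 6 largest gains and 6 largest losses in mean rescaled TPM and the 6 most abundant genes. Other members of lists, genes with printed promoters, and the tubulin genes were named after their values were seen. Some genes that the rule chose are not reported here. Promoters and gene positions came from RefSeq (GRCh38.p14) and the deposited table. Alternatives were other pseudocounts, filters, scaling, samples, variance models, a replicate block and leaving out each sample.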

Additional observations from a re-analysis of the deposited data

Results flagged for a closer look

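In 582 groups of 4 samples, 2 for each of the 291 genes named above, 32 held a sample that stood apart from the other 3 by more than Dixon's 95% critical value, and chance gives about 1 in 20. TPM is given for each, with the range of the other 3 samples. ABCA5 was at 9.19 in sample CJ28-2, below the 10.9 to 11.1 of the others. Sample VEH-3 had 223 for ACTB, below 275 to 285. For AHRR, sample CJ28-3 lay at 9.58, below 11.1 to 11.3. At 1.45, sample VEH-4 was above the other samples of AL035699.1 (0). CCN1 was at 4.22 in sample CJ28-3, below the 5.26 to 5.45 of the others. Sample VEH-2 had 12.8 for CEBPG, below 13.26 to 13.35. For CHAC1, sample VEH-1 lay at 3.68, above 3.07 to 3.11. At 70.2, sample CJ28-2 was above the other samples of CLTC (68.9 to 68.99). COX7B was at 42.8 in sample CJ28-4, below the 49.1 to 49.9 of the others. Sample CJ28-3 had 67.02 for CS, below 69.6 to 69.9. For CYP17A1, sample VEH-2 lay at 47.3, below 49.4 to 49.7. At 0.94, sample CJ28-4 was below the other samples of E2F2 (1.05 to 1.07). E2F5 was at 5.37 in sample CJ28-1, above the 4.36 to 4.53 of the others. Sample VEH-3 had 6.34 for ETV5, below 7.49 to 7.69. For GBF1, sample VEH-3 lay at 10.6, below 11.2 to 11.3. At 16.9, sample CJ28-4 was below the other samples of HSF2 (18.9 to 19.2). HSPA1A was at 9.55 in sample CJ28-1, below the 11.9 to 12.1 of the others. Sample VEH-2 had 31.9 for MRPL27, above 27.4 to 27.8. For MRPL58, sample CJ28-4 lay at 17.4, below 18.9 to 19.1. At 2579.7, sample VEH-4 was above the other samples of MT-ATP8 (1901 to 1976). MTHFD2 was at 25.8 in sample VEH-3, above the 23.7 to 23.9 of the others. Sample VEH-2 had 4.65 for NFIL3, above 3.63 to 3.74. For NIBAN1, sample VEH-1 lay at 0.29, above 0.23 to 0.24. At 5.37, sample CJ28-4 was below the other samples of NR0B1 (5.94 to 5.96). PTDSS2 was at 3.57 in sample CJ28-4, above the 2.64 to 2.79 of the others. Sample VEH-3 had 3.84 for RPTOR, below 4.81 to 5.01. For SEC23B, sample CJ28-4 lay at 21.4, below 24.3 to 24.7. At 11.7, sample CJ28-2 was below the other samples of SEC24D (12.3 to 12.4). SLC4A8 was at 3.92 in sample CJ28-1, above the 3.46 to 3.51 of the others. Sample CJ28-4 had 78.8 for TUBB, below 81.5 to 81.9. For TUBB4A, sample VEH-3 lay at 4.16, below 5.71 to 5.89. At 9.44, sample VEH-2 was above the other samples of VPS37A (7.32 to 7.66). Sample CJ28-4 held 8 of the 32, the most of any sample, which was not tested.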

How the results depend on the processing

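Median log2 fold change of the included genes was -0.11 on TPM, 0.094 on rescaled TPM and 0.042 with median-of-ratios scaling, so the direction of the typical gene was set by the scaling. Rescaling gave 4564 higher and 2952 lower genes in place of 2741 and 4728. The group changed at least 2-fold on both scales went from 565 to 340 genes with a pseudocount of 1 (141 higher and 199 lower), and its higher genes from 248 to 379 with median-of-ratios scaling. Leaving out each sample in turn gave 7076 to 7290 changed genes on TPM (2536 to 2658 higher, 4446 to 4681 lower), 7146 to 7311 on rescaled TPM (4344 to 4446 higher, 2750 to 2937 lower), 553 to 575 changed at least 2-fold (243 to 258 higher, 299 to 324 lower) and a median of -0.12 to -0.099. Among named genes called on TPM, the log2 fold changes of CDKN1A (0.0095), HARS1 (0.060), MCL1 (0.0026), CLTC (0.022), GBF1 (0.029) and MT-CO1 (0.049) turned from negative to positive on rescaled TPM, and the log2 fold change of HARS1 did so with median-of-ratios scaling (0.0079). With the replicate number as a block, 7490 genes changed on TPM, 7519 on rescaled TPM and 564 at least 2-fold on both scales, and the block changed none of these counts by a factor of 1.5. The deviations of same-numbered CJ28 and VEH samples correlated at -0.21, -0.02, 0.15 and 0.16. Samples CJ28-3 and CJ28-4 correlated best with the VEH sample of their own number, and CJ28-1 and CJ28-2 did not. With 4 samples per group, whose deviations are not independent, these values cannot settle whether the numbers pair the samples. Of the 291 named genes, none changed direction or its side of the threshold with either other pseudocount. The cause of these differences was not tested. TPM keeps no depth, so the counting error of low genes is unknown.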
